A study of Mus musculus with 12 samples.

Results

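The genes described here are 6 matrix metalloproteinases and 4 of their inhibitors. They were taken as a named list of 10 genes from the 55536 genes of the count table: Mmp2, Mmp3, Mmp9, Mmp10, Mmp13, Mmp14, Timp1, Timp2, Timp3 and Reck. No measured value entered that rule, but the list was chosen with earlier results of these data known. RNA-seq was performed on C2C12 cells, a mouse skeletal muscle myoblast line that fuses into myotubes in low-serum medium. The cells grew on uncoated plates (control) or on plates coated with Collagen I, with fibronectin or with Geltrex, a basement membrane extract with reduced growth factors. In the study, cells on these plates were switched to low-serum medium to induce differentiation. Each of the 4 groups held 3 samples, 12 in all. The line carried GFP and all groups were cells of this 1 line without other genetic change. The day of RNA collection and whether the 3 samples of a group were separate cultures are not given in the sources used here, so p-values measure the spread between these samples, which may be technical.

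Matrix metalloproteinases are zinc-dependent enzymes, secreted as inactive precursors or held in the plasma membrane, that cut collagens, laminins, fibronectin and other matrix proteins. Tissue inhibitors of metalloproteinases (TIMPs) bind the active site of these enzymes, and RECK is a membrane-anchored inhibitor. In muscle the system is known for remodelling the basement membrane around fibres and for letting myoblasts migrate and fuse. MMP-14, together with TIMP-2, also assembles the cell-surface complex in which pro-MMP-2 is activated. Transcript levels do not measure the activity of any of these proteins.

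Mmp3, Mmp10 and Mmp13 lie on the plus strand of chromosome 9 in GRCm38, within a stretch of 427.072 kb from 7272514 to 7699585 that holds 10 Mmp genes. A promoter entry in the RefSeq table for GRCm38.p6 was found for 8 of the 10 listed genes, all but Mmp2 and Mmp9. An AP-1 motif (TGAGTCA or, on the other strand, TGACTCA) was present in the 250 bases before the start of these 3 genes and of none of the other 5 listed genes with an entry, and in 4.46% of all 32851 promoters of that table. A GC box (GGGCGG or CCGCCC) was present in the other 5 promoters, those of Mmp14, Timp1, Timp2, Timp3 and Reck, and in 32.7% of all promoters. The 3 promoters of the chromosome 9 genes are shown because these neighbours share the motif and are described below, and that of Timp3 because it was the inhibitor with the most calls. Capitals mark the AP-1 motif in the first 3 sequences and the GC box in the last, all 5′ to 3′ on the plus strand.
Mmp13 (chr9:7272264-7272513): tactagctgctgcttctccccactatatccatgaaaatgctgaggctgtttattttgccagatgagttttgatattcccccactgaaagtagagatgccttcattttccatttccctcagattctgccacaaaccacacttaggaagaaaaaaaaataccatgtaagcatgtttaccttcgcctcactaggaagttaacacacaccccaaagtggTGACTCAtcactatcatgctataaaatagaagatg
Mmp3 (chr9:7445572-7445821): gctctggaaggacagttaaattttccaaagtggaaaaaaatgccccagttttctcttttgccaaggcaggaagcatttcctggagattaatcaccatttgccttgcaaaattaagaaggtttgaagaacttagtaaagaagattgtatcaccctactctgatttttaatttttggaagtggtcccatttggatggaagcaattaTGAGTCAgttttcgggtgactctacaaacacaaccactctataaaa
Mmp10 (chr9:7502092-7502341): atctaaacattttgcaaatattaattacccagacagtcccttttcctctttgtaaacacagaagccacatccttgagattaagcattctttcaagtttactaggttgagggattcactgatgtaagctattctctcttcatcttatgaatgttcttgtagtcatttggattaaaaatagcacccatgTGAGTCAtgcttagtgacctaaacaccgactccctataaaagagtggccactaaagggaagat
Timp3 (chr10:86300162-86300411): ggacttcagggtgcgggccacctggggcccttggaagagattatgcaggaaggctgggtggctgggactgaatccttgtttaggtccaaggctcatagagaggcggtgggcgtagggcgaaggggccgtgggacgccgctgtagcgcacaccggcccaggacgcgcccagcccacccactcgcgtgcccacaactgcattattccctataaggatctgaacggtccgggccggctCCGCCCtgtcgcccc
The AP-1 motif began 35 bases before the start in Mmp13, 46 bases before it in Mmp3 and 63 bases before it in Mmp10. Starts here are those of the RefSeq table. By the GENCODE M21 positions given below, the GC boxes of Timp2 and Timp3 lie inside the gene. A match of letters is a description of the sequence and not a measured binding site.

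Total counts lay between 22520404 and 27351766 per sample. All 10 muscle line markers were detected in every sample, from the desmin gene Des (at least 20080 counts) to Actn2 (at least 87 counts). Their summed level was 5501 to 6119 CPM (counts scaled to a common library size) in control, 5770 to 5972 in Collagen I, 2081 to 2382 in fibronectin and 2704 to 2883 in Geltrex. The summed level of 8 dividing cell markers was 179 to 232 CPM in control, 156 to 165 in Collagen I, 589 to 787 in fibronectin and 627 to 675 in Geltrex. Of these markers, 9 of 10 muscle genes were called lower and all 8 dividing cell genes higher on both fibronectin and Geltrex over control in edgeR. Among all genes tested, 31.9% and 33.0% were called in either direction. The part of these markers in the results below was not tested. In bulk RNA, fewer cells of a type cannot be told apart from less RNA per cell. The 3 Geltrex libraries were closer to each other than those of any other group, with a chi-square per gene of 2.18 to 4.54 between pairs against 7.71 to 64.6 in the other groups. They differed by more than sampling noise and were kept as 3 samples.

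Levels below are CPM with TMM normalization, given as mean ± SD of 3 samples, and log2 fold changes come from edgeR's quasi-likelihood test with its standard error (SE) and a p-value adjusted by Benjamini-Hochberg over 14499 genes. A gene was called at an adjusted p of 0.05 or lower. Of the 10 genes, 9 passed the filter on low counts. Mmp10 did not pass. Mmp9 passed only through the Geltrex samples, where it was highest, so its presence among the tested genes is not independent of its difference. Its p-values are given as a description, and counts of called genes are also given without it.

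Timp3 and Reck were highest on fibronectin, Mmp13 and Mmp9 were highest on Geltrex, and Mmp2 was at a similar level on every coating. On Collagen I against control, 1 of 9 genes was called (Timp3, lower), beside 1.12% of all genes tested. On fibronectin against control, 2 of 9 were called, both higher (Timp3 and Reck), beside 31.9% of all genes. On Geltrex against control, 3 of 9 were called, with Mmp13 and Mmp9 higher and Timp3 lower, beside 33.0% of all genes. These 3 comparisons share the control samples. Between coatings, 2 of 9 were called for Collagen I against fibronectin (45.0% of all genes), 3 of 9 for Collagen I against Geltrex (37.1%) and 4 of 9 for fibronectin against Geltrex (19.3%). With 9 genes, 1 call more or less moves the share by over 10 percentage points, and no share was tested against that of all genes. With a fold of at least 2 also asked for, 2 of 9 were called for Geltrex against control (9.14% of all genes), 1 for Collagen I against fibronectin (8.46%), 2 for Collagen I against Geltrex (9.32%) and 3 for fibronectin against Geltrex (3.98%). The calls for Collagen I against control (0.131% of all genes at that fold) and for fibronectin against control (6.66%) were all under 2-fold. The samples of 2 groups did not overlap for 1 of the 9 genes in Collagen I against control (17.3% of all genes tested), 3 in fibronectin against control (41.6%), 6 in Geltrex against control (50.4%), 2 in Collagen I against fibronectin (51.4%), 4 in Collagen I against Geltrex (54.7%) and 5 in fibronectin against Geltrex (42.7%). Without Mmp9, the called genes were 2 of 8 for Geltrex against control, 2 of 8 for Collagen I against Geltrex and 3 of 8 for fibronectin against Geltrex, of which 1, 1 and 2 reached a fold of 2. Without it the groups did not overlap for 5, 3 and 4 of the 8 genes in the same order. The median log2 fold change of the 9 genes over control was 0.06 on Collagen I, -0.01 on fibronectin and 0.16 on Geltrex, where the median of all genes tested was -0.00315, -0.016 and -0.012.

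**Figure D1:**
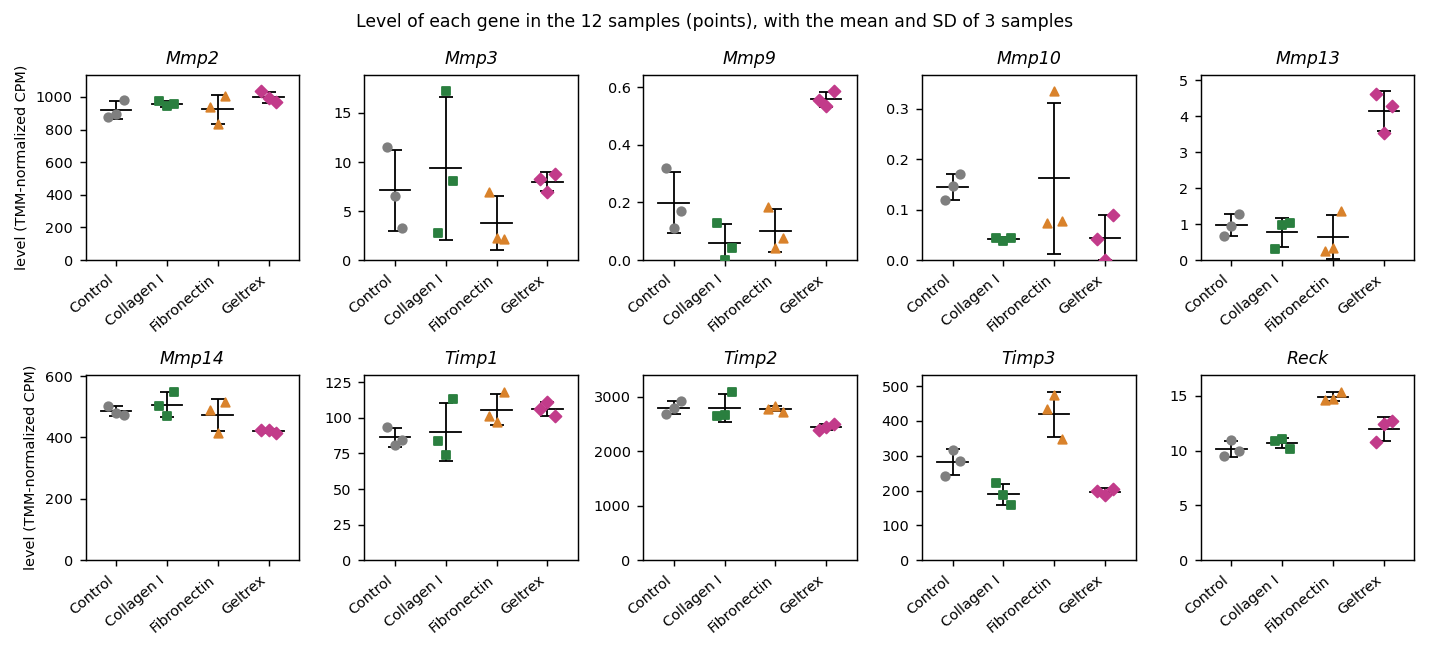
Level of each of the 10 genes (TMM-normalized CPM, linear axes that start at 0) in the 12 samples. Points are samples, black lines the mean and SD of 3 samples. The 3 Geltrex samples stand above the other 9 for Mmp13 and Mmp9, and the 3 fibronectin samples stand above the other 9 for Timp3 and Reck.

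**Figure D2:**
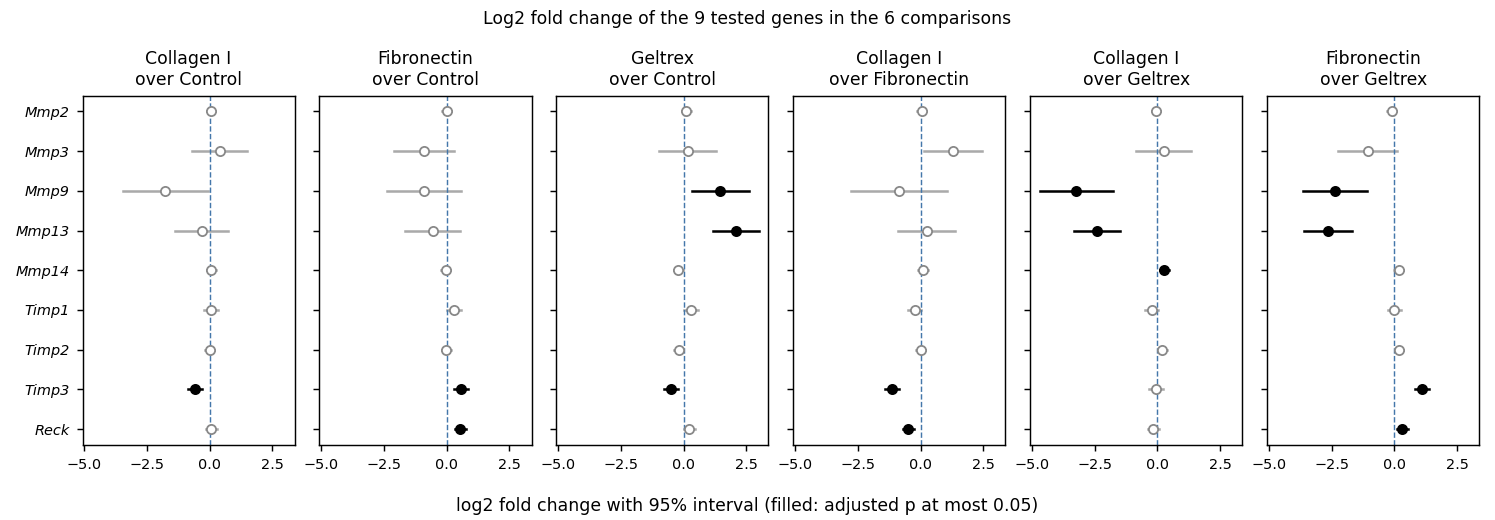
Log2 fold change (horizontal axis) of the 9 tested genes in the 6 comparisons, with the 95% interval as a line. Filled points have an adjusted p of 0.05 or lower. Timp3 is filled in 5 of the 6 panels, and the intervals of the low-count genes Mmp3, Mmp9 and Mmp13 are the widest.

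Per kilobase of exon, the 10 genes covered over 4 orders of magnitude. Timp2 was the most abundant, with group means of 629 to 720 CPM per kilobase and 53.7% to 60.0% of the summed per-length level of the 10 genes in a sample. Mmp2, the gelatinase that cuts denatured collagen and basement membrane collagen IV, came next at 273 to 296 CPM per kilobase and 20.3% to 26.8% of the sum. Timp1 (97.3 to 120 CPM per kilobase) and Mmp14 (70.7 to 85.1) followed, and on no coating did their group means change places. The order of these 2 genes depends on the length used, that of all annotated exons of a gene joined (888 bp for Timp1, 5960 bp for Mmp14). In CPM without length, the group means of Mmp14 (421 to 507) were above those of Timp1 (86.4 to 106). Timp3 lay at 23.2 to 51.4 CPM per kilobase. Mmp3 and Reck lay at a few CPM per kilobase, Mmp13 at 0.244 to 1.55, and Mmp9 and Mmp10 were near the limit of detection, at 0.0163 to 0.158 and 0.0239 to 0.0942.

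**Figure D3:**
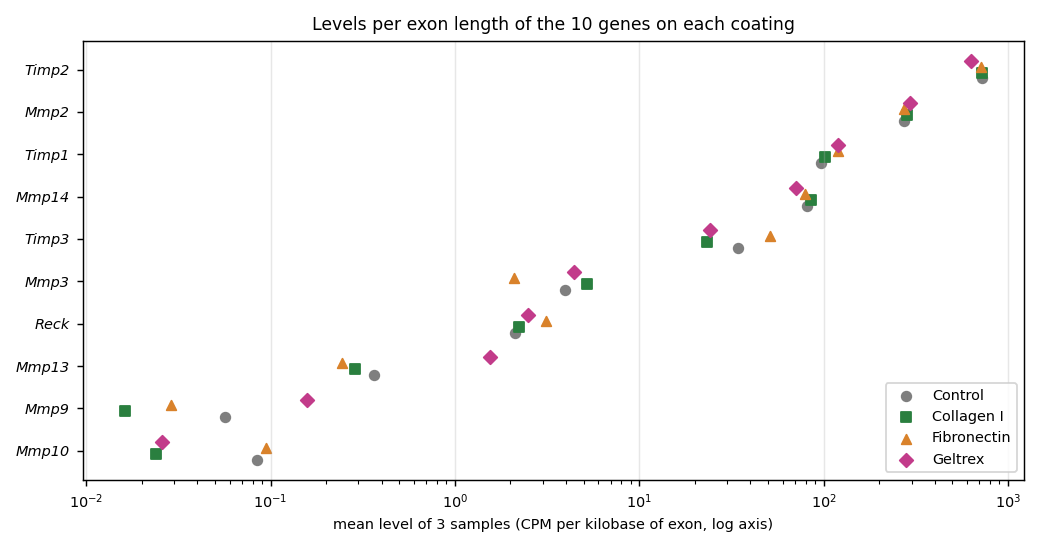
Mean level of 3 samples per kilobase of exon (log axis) for the 10 genes, ordered by their mean over all samples, with 1 symbol per coating. The 4 coatings lie close together for Timp2, Mmp2, Timp1 and Mmp14 and spread apart for Timp3 and for the low-count genes Mmp3, Mmp13, Mmp9 and Mmp10.

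Gene positions below are those of GENCODE M21 on GRCm38. The gelatinases were Mmp2 (ENSMUSG00000031740, chr8:92827291-92853420) and Mmp9 (ENSMUSG00000017737, chr2:164940780-164955850). Mmp2 had 19876 to 25918 counts per sample, and its level was 920 ± 56.5 CPM in control, 958 ± 17.9 in Collagen I, 925 ± 87.7 in fibronectin and 998 ± 34.0 in Geltrex. The 4 groups overlapped, and none of the 6 comparisons was called by edgeR or by DESeq2, with the smallest unadjusted p at 0.178 for Geltrex against control. That difference had a log2 fold change of 0.12 with a 95% interval of -0.06 to 0.29.

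Mmp9, the other gelatinase and typical of leukocytes and of migrating cells, had 8, 3 and 4 counts in the control samples. It had 3, 0 and 1 counts in Collagen I, 5, 1 and 2 counts in fibronectin and 13, 13 and 13 counts in Geltrex. Every Geltrex sample was above every other sample, while the other 3 groups overlapped. The count of 0 in Collagen I sample 2 allows a level of up to 0.111 CPM, a limit that covers counting error only. Scaled for depth, the 39 Geltrex counts were 2.83 times the 15 control counts, with an exact 95% binomial interval of 1.52 to 5.52 that covers counting error only. The p-values of Mmp9 that follow are a description, since it passed the filter only through the Geltrex samples. The log2 fold change of Mmp9 on Geltrex over control was 1.47 (SE 0.53, adjusted p = 0.0447 in edgeR). This call ended without control sample 2 (adjusted p = 0.148), control sample 3 (0.123), or Geltrex sample 1 (0.101), 2 (0.0967) or 3 (0.113). It also ended with DESeq2 (0.0856), upper-quartile normalization (0.0501), no filter on low counts (0.114) and the Geltrex libraries summed into 1 sample (0.174), so that it held in 4 of 13 alternatives. Against Geltrex, Mmp9 was lower on Collagen I (log2 fold change -3.23, SE 0.68, adjusted p = 0.0017 in edgeR) and on fibronectin (-2.37, SE 0.60, adjusted p = 0.0110). Without Collagen I sample 1 the first of these values was -4.49, and without Collagen I sample 2 it was -2.63. Without fibronectin sample 1 the second was -3.11, and without fibronectin sample 2 it was -2.03 and no longer called (adjusted p = 0.0586). Its call also ended with the Geltrex libraries summed into 1 sample (adjusted p = 0.0860). Of 7 macrophage markers, the summed level was 9.68 to 12.8 CPM in control, 10.7 to 13.8 in Collagen I, 7.87 to 9.20 in fibronectin and 8.48 to 9.44 in Geltrex. Cd14 (144 to 306 counts per sample) and Cd68 (17 to 35) were detected in every sample, Lyz2, Csf1r and Itgam had at most 10, 5 and 3 counts, Ptprc at most 1, and Adgre1 0 in all 12 samples. The part of such cells in the Mmp9 values was not tested.

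The stromelysins were Mmp3 (ENSMUSG00000043613, chr9:7445822-7455975) and Mmp10 (ENSMUSG00000047562, chr9:7502352-7510240), enzymes that cut proteoglycans, laminin and fibronectin and that can activate other pro-MMPs. Mmp3 had 289, 179 and 78 counts in control, 63, 463 and 188 in Collagen I, 188, 53 and 55 in fibronectin and 193, 168 and 195 in Geltrex. The samples of a group differed widely except on Geltrex, and all 4 groups overlapped. The coefficient of variation of its CPM was 57.8% in control, 78.3% in Collagen I and 73.4% in fibronectin, against 12.05% in Geltrex. On the log2 scale, the SD of Mmp3 within Collagen I was 1.32 where the median gene had 0.16. None of its 6 comparisons was called by edgeR or DESeq2. The nearest was Collagen I over fibronectin, with a log2 fold change of 1.31 (SE 0.55, 95% interval 0.14 to 2.47, adjusted p = 0.0638 in edgeR). That comparison was called without Collagen I sample 1 (log2 fold change 1.73, adjusted p = 0.0105) and without fibronectin sample 1 (2.11, adjusted p = 0.0153), and 3 of the 6 comparisons were called when genes with low counts were kept. Mmp10 had 3, 4 and 4 counts in control, 1 in each Collagen I sample, 2, 8 and 2 in fibronectin and 1, 0 and 2 in Geltrex. Mmp10 was left out by the filter on low counts and has no p-value. Scaled for depth, its Geltrex counts were 0.296 times those of control (exact 95% interval 0.0531 to 1.12), and its Collagen I counts were 0.283 times those of control (0.0507 to 1.07) and 0.262 times those of fibronectin (0.0474 to 0.969). These intervals cover counting error only, and 8 of the 12 fibronectin counts came from 1 sample.

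Mmp13 (ENSMUSG00000050578, chr9:7272514-7283331), the interstitial collagenase that opens fibrillar collagens in rodents, had 17, 26 and 30 counts in control and 7, 26 and 24 in Collagen I. It had 7, 8 and 35 counts in fibronectin and 108, 86 and 95 in Geltrex. The 3 Geltrex samples were all above the other 9, which overlapped among themselves. Its level was 4.15 ± 0.548 CPM in Geltrex against 0.968 ± 0.299 in control, 0.768 ± 0.404 in Collagen I and 0.651 ± 0.614 in fibronectin. The log2 fold change on Geltrex over control was 2.10 (SE 0.43, adjusted p = 0.00126 in edgeR), a 4.28-fold difference. Against Geltrex, Mmp13 was lower on Collagen I (-2.41, SE 0.44, adjusted p = 0.000534) and on fibronectin (-2.66, SE 0.45, adjusted p = 0.000593). These 3 calls held in each alternative that tested the gene, and a stricter filter that asks for 10 counts in every sample left it out. Fibronectin sample 3 held most of the fibronectin counts. Without that sample the value against Geltrex was -3.79, and Mmp13 was then also called lower on fibronectin than on control (log2 fold change -1.68, adjusted p = 0.0175), and the Collagen I over fibronectin value was called as well (1.37, adjusted p = 0.0403). With the sample, these last comparisons had a log2 fold change of -0.56 and 0.25 and adjusted p-values of 0.435 and 0.734. For its neighbour Mmp3, the log2 fold change on Geltrex over control was 0.16 (95% interval -0.96 to 1.28, adjusted p = 0.849 in edgeR), and the difference between these genes was not tested.

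Mmp14 (ENSMUSG00000000957, chr14:54431612-54445364), the membrane-type collagenase that activates pro-MMP-2, had 9159 to 13261 counts per sample. Its level was 485 ± 16.1 CPM in control, 507 ± 39.9 in Collagen I, 473 ± 51.3 in fibronectin and 421 ± 7.23 in Geltrex. The 3 Geltrex samples, at 413 to 426 CPM, were below every control and Collagen I sample and overlapped with fibronectin sample 2 at 416 CPM. Mmp14 was called for Collagen I over Geltrex alone (log2 fold change 0.27, SE 0.09, adjusted p = 0.0249 in edgeR). That call ended without Collagen I sample 1 (adjusted p = 0.0562) or 3 (0.0858) and without Geltrex sample 1 (0.0710), 2 (0.0686) or 3 (0.0883), and with the Geltrex libraries summed (0.246). On Geltrex over control the log2 fold change was -0.20, with a 95% interval of -0.39 to -0.02 and an adjusted p of 0.0874 in edgeR, and it was called in the fit of these 2 groups alone (0.0238).

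Among the TIMPs, Timp1 (ENSMUSG00000001131, chrX:20870166-20874735), a secreted inhibitor induced by serum and cytokines in many cells, had 2360, 2212 and 1982 counts in control, 1937, 1989 and 2623 in Collagen I, 2736, 2325 and 3047 in fibronectin and 2486, 2696 and 2246 in Geltrex. In CPM, the fibronectin samples (97.3 to 118) and the Geltrex samples (101 to 111) were all above the control samples (81.1 to 93.9), and Collagen I spanned all of them (73.9 to 113). The log2 fold change over control was 0.29 on fibronectin (95% interval 0.02 to 0.56, adjusted p = 0.0894 in edgeR) and 0.30 on Geltrex (0.03 to 0.57, adjusted p = 0.0832). Neither was called here, but both were with no filter on low counts (adjusted p = 0.0165 and 0.0140), and the Geltrex difference was in the fit of those 2 groups alone (0.00781). Without Collagen I sample 3, Timp1 was called lower in the Collagen I group than in the fibronectin group (-0.42, adjusted p = 0.00386) and the Geltrex group (-0.43, adjusted p = 0.00362), where the values with it were -0.23 and -0.23.

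Timp2 (ENSMUSG00000017466, chr11:118301069-118355740), the inhibitor that also takes part in MMP-2 activation, had 55389 to 76364 counts per sample. Its level was 2804 ± 120 CPM in control, 2804 ± 254 in Collagen I, 2783 ± 49.7 in fibronectin and 2451 ± 49.2 in Geltrex. All 3 Geltrex samples (2400 to 2497 CPM) were below the other 9 (2648 to 3097 CPM). The difference was small. On Geltrex over control the log2 fold change was -0.19 (95% interval -0.37 to -0.02, adjusted p = 0.0829 in edgeR), and it was called by DESeq2 (-0.19, adjusted p = 0.0409) and in the fit of these 2 groups alone (0.0434). Over Geltrex it was 0.19 on Collagen I (adjusted p = 0.0759, and called at 0.0402 by DESeq2 and 0.0320 with upper-quartile normalization) and 0.18 on fibronectin (adjusted p = 0.132).

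Timp3 (ENSMUSG00000020044, chr10:86300372-86349506), the matrix-bound inhibitor, which also inhibits some ADAM and ADAMTS proteases, varied most among the abundant genes. It had 6084, 8610 and 6707 counts in control and 5095, 5023 and 3709 in Collagen I. It had 11714, 11324 and 8939 counts in fibronectin and 4661, 4535 and 4554 in Geltrex. In CPM, fibronectin was highest (419 ± 65.0), then control (281 ± 37.1), then Geltrex (197 ± 9.42) and Collagen I (189 ± 30.5). Each fibronectin sample was above each control sample, each control sample was above each Geltrex and Collagen I sample, and those last groups overlapped (log2 fold change -0.06, 95% interval -0.33 to 0.22, adjusted p = 0.745 in edgeR). Over control, Timp3 rose on fibronectin (log2 fold change 0.58, SE 0.13, adjusted p = 0.00321) and fell on Geltrex (-0.51, SE 0.13, adjusted p = 0.00643). Between coatings, the Collagen I level was 2.21-fold lower than the fibronectin level (-1.15, SE 0.13, adjusted p = 5.86e-06 in edgeR) and the fibronectin level 2.12-fold higher than the Geltrex level (1.09, SE 0.13, adjusted p = 2.35e-05). The fifth call, lower on Collagen I than on control (-0.57, SE 0.13, adjusted p = 0.0443), was the least firm. It ended without control sample 2 (adjusted p = 0.194) or 3 (0.120), without Collagen I sample 2 (0.127) or 3 (0.104), in a fit of these 6 samples alone (0.127) and with RLE normalization (0.0501), while DESeq2 kept it (0.00382). The call on Geltrex over control ended when the Geltrex libraries were summed into 1 sample (adjusted p = 0.130 in edgeR). Syn3, on the opposite strand, overlaps 21.279% of the Timp3 exons, and it had 2 to 14 counts per sample against 3709 to 11714 for Timp3. Whether counting used strand is not given in the sources used here.

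Reck (ENSMUSG00000028476, chr4:43875530-43944806), the membrane-anchored inhibitor, had 240, 300 and 234 counts in control and 251, 297 and 236 in Collagen I. It had 394, 352 and 396 counts in fibronectin and 252, 302 and 282 in Geltrex. The 3 fibronectin samples, at 14.6 to 15.4 CPM, were above the other 9, at 9.55 to 12.7 CPM. The log2 fold change was 0.55 on fibronectin over control (SE 0.10, adjusted p = 0.000841 in edgeR), a 1.47-fold difference, and -0.48 on Collagen I over fibronectin (SE 0.10, adjusted p = 0.00165). Both calls held in all 13 alternatives of their comparison. On fibronectin over Geltrex it was 0.32 (SE 0.10, adjusted p = 0.0409). That call ended without fibronectin sample 1 (adjusted p = 0.0874), 2 (0.0774) or 3 (0.0830) and without Geltrex sample 1 (0.199), 2 (0.0847) or 3 (0.0631), with no filter on low counts (0.121) and with the Geltrex libraries summed (0.301), and it held in 6 of 14 alternatives. On Geltrex over control, Reck had a log2 fold change of 0.24 (95% interval 0.01 to 0.46, adjusted p = 0.0991) where Timp3 fell.

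Enzyme and inhibitor levels were set against each other within each sample as the summed per-length level of the 6 Mmp genes over that of the 3 Timp genes. The ratio was 0.421 ± 0.00778 in control, 0.446 ± 0.0368 in Collagen I, 0.403 ± 0.0433 in fibronectin and 0.483 ± 0.0212 in Geltrex. Geltrex samples (0.465 to 0.506) were above all control and fibronectin samples and overlapped with Collagen I (0.404 to 0.469). The exact permutation test over the 4 groups and 15400 arrangements gave p = 0.0632. For Geltrex against control and against fibronectin the exact two-sided p was 0.1, the smallest that 3 samples against 3 allow. The ratio rests largely on Mmp2 and Timp2, the most abundant enzyme and inhibitor. On Geltrex over control their log2 fold changes were 0.12 and -0.19, neither called in edgeR. Without Mmp2, the log2 ratio of Geltrex minus control changed from 0.20 to -0.019. No ratio without Timp2 was computed. Without Collagen I sample 3 the exact p over the 4 groups was 0.0185, and without fibronectin sample 3 it was 0.0214.

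Mmp2 over Timp2 was 0.447 to 0.498 in the Geltrex samples and 0.340 to 0.427 in the other 9. Mmp2 over Mmp14 was 4.12 to 4.30 in Geltrex and 3.08 to 3.68 in the other 9. Both Geltrex ranges stood clear of all other samples, as a description without a test. Mmp14 over Timp2 overlapped in all groups, at 0.113 ± 0.00852 in control, 0.118 ± 0.00503 in Collagen I, 0.111 ± 0.0139 in fibronectin and 0.112 ± 0.00394 in Geltrex. Timp3 over Timp2 was 0.0719 ± 0.00996 in fibronectin, above 0.0479 ± 0.00552 in control, 0.0385 ± 0.00182 in Geltrex and 0.0327 ± 0.00762 in Collagen I.

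**Figure D4:**
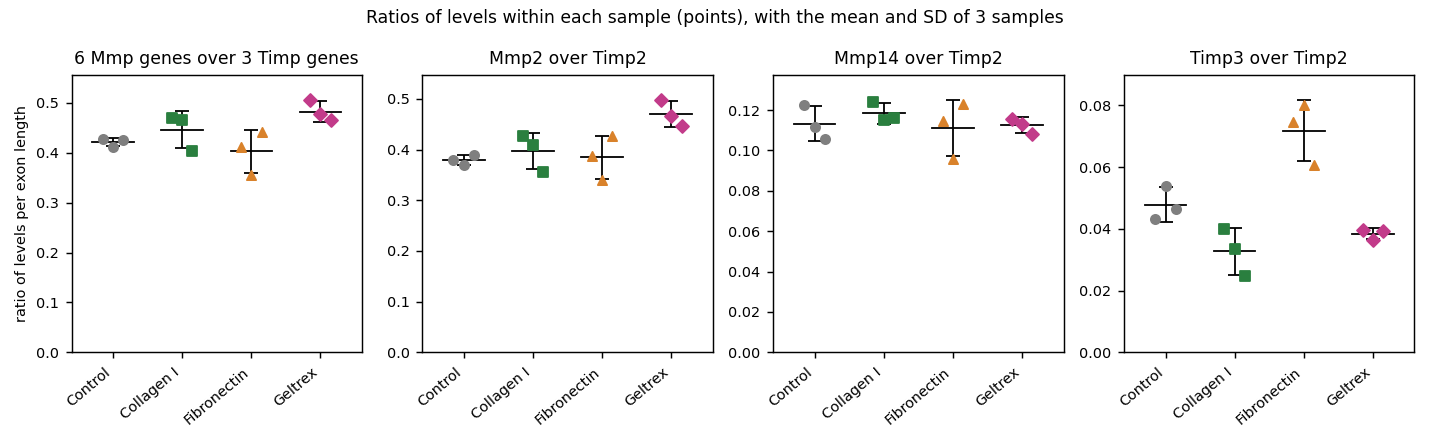
Ratios of per-length levels in the 12 samples (points, linear axes that start at 0), with the mean and SD of 3 samples as black lines. Geltrex is highest for Mmp2 over Timp2 (0.447 to 0.498), the groups overlap for Mmp14 over Timp2, and fibronectin is highest for Timp3 over Timp2.

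The other genes of the same families, and of systems that activate or share substrates with MMPs, were read from the same fit by fixed lists. For scale, 1.12% of all genes tested were called on Collagen I, 31.9% on fibronectin and 33.0% on Geltrex over control. No list was tested against these shares. Of 17 other Mmp genes and Timp4, 8 were tested. On fibronectin over control 2 of the 8 rose, Mmp16 (log2 fold change 0.71, adjusted p = 0.00261) and Mmp28 (0.46, adjusted p = 0.0073). On Geltrex 3 rose, among them Mmp16 (0.87, adjusted p = 0.000431 in edgeR) and Mmp15 (0.58, adjusted p = 0.000451). Mmp15 and Mmp16 encode membrane-type MMPs like Mmp14, which did not share their direction (log2 fold change -0.20 on Geltrex over control, not called). Mmp17, also of the membrane type and at 4 to 41 counts per sample, did not share it either (-0.61, adjusted p = 0.368 in edgeR).

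The plasminogen activator system, whose product plasmin can activate pro-MMPs, had 6 genes tested. Of these, 4 rose on fibronectin and 5 on Geltrex over control, and none fell. The median log2 fold change was 0.53 and 0.71, where the median of all genes tested was -0.016 and -0.012. Plau, which encodes urokinase, was at 181 ± 13.96 CPM in control, 213 ± 6.55 in Collagen I, 293 ± 36.0 in fibronectin and 504 ± 5.09 in Geltrex. On Geltrex over control the log2 fold change of Plau was 1.48 (adjusted p = 1.14e-08 in edgeR). Plau and Mmp13 were both highest on Geltrex, but on fibronectin over control Plau was called higher (0.70, adjusted p = 2.68e-05) and Mmp13 (-0.56) was not called.

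The AP-1 and ETS list held 15 transcription factor genes, all tested, with Runx1 and Runx2 among them. Over control, 7 rose and 1 fell on Geltrex, and 7 rose and 3 fell on fibronectin. The AP-1 genes among the rises were Atf3, Fosl1 and Fosl2 on Geltrex and Fosl1 alone on fibronectin. The 3 falls on fibronectin were the AP-1 genes Fos, Jun and Junb, and the fall on Geltrex was Ets2. Fos, Jun, Junb and Jund were not called on Geltrex over control. Atf3 was at 65.6 ± 2.05 CPM on Geltrex against 4.35 ± 0.465 in control (log2 fold change 3.91, adjusted p = 1.36e-11 in edgeR), and on fibronectin it was at 4.81 ± 0.526. Fosl1, a FOS-family gene, was at 3.68 ± 0.524 CPM on Geltrex, 1.16 ± 0.105 on fibronectin and 0.548 ± 0.151 in control (2.73 on Geltrex, adjusted p = 8.19e-07, and 1.07 on fibronectin, adjusted p = 0.00898). Fos fell on fibronectin over control (-1.56, adjusted p = 0.00598). These values stand beside those of Mmp13, Mmp3 and Mmp10, whose promoters hold an AP-1 motif. A link between them was not tested.

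The ADAM and ADAMTS genes, a group in which TIMP-3 also inhibits some proteases, had 19 tested. Over control, 5 rose and 2 fell on fibronectin and 6 rose and 1 fell on Geltrex. These were 7 of 19 genes on each coating, beside 31.9% and 33.0% of all genes tested. The aggrecanase gene Adamts5 rose on all 3 coatings over control, by a log2 fold change of 0.70 on Collagen I (adjusted p = 0.00279 in edgeR), 0.59 on fibronectin (0.000378) and 1.02 on Geltrex (1.53e-06). On Collagen I and Geltrex the level of Timp3 was lower than in control, and on fibronectin it was higher. Adam12 fell on Collagen I (-1.23, adjusted p = 0.00611) and on Geltrex (-0.69, adjusted p = 0.0112). Among 6 tested genes of convertases and cell-surface activators, Cd44, a hyaluronan receptor that can hold MMPs at the cell surface, fell on Collagen I (-0.66, adjusted p = 0.00391) and rose on fibronectin (0.94, adjusted p = 3.5e-06) and Geltrex (0.79, adjusted p = 1.5e-05). Furin, which encodes the convertase that activates pro-MMP-14, fell on Geltrex (-0.25, adjusted p = 0.0450). Of 8 tested cathepsin and cystatin genes, 2 rose and 3 fell on fibronectin and 1, Ctsh, fell on Geltrex (-0.37, adjusted p = 0.0411).

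Of 16 genes of structural proteins that MMPs cut, 6 rose and 3 fell on fibronectin and 6 rose and 4 fell on Geltrex over control. Of all genes tested, 31.9% and 33.0% were called in these comparisons. Col1a1, which encodes a collagen I chain, was at 142 ± 20.5 CPM in control and fell on fibronectin (log2 fold change -0.72, adjusted p = 0.000334 in edgeR) and on Geltrex (-1.18, adjusted p = 2.18e-06). The tenascin gene Tnc fell on Collagen I (-0.59, adjusted p = 0.00768) and rose on fibronectin (1.21, adjusted p = 2.32e-07) and Geltrex (0.92, adjusted p = 2.65e-06). Col1a2, which encodes the other collagen I chain and was named after its values were seen, rose on fibronectin (0.25, adjusted p = 0.0404) and on Geltrex (0.38, adjusted p = 0.00399).

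**Figure D5:**
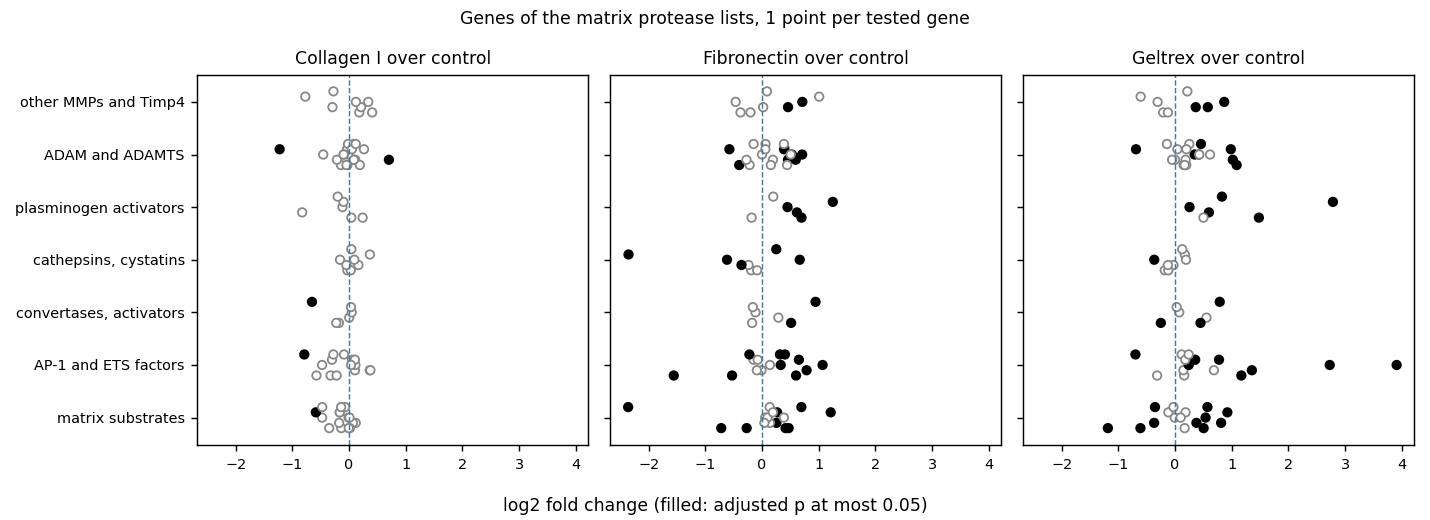
Log2 fold change over control (horizontal axis) of each tested gene in 7 lists of proteases, regulators and substrates, with 1 point per gene and the control set at the dashed line. Filled points have an adjusted p of 0.05 or lower. The plasminogen activator genes lie mostly to the right on fibronectin (4 called) and Geltrex (5 called), and the point farthest right on Geltrex is Atf3 (3.91).

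The 3 genes of the list with the widest range of group means on the log2 scale were Mmp13, Mmp9 and Mmp3. Likeness to them was measured as Pearson's r of log2 CPM over the 12 samples among 9946 protein-coding genes, as a description, since the points share their groups and libraries. Mmp13 was most like the chemokine gene Cxcl1 (r = 0.94), which was at 38.8 CPM in control, 31.6 in Collagen I, 24.8 in fibronectin and 142 in Geltrex. Ptgfr (r = 0.93) and Lpl (r = 0.92) followed. Mmp9 was most like Ptprf (0.94), Tsc22d1 (0.92) and Ptpn23 (0.92). It had 0 to 13 counts per sample and passed the filter only through the Geltrex samples, so these r values are limited by counting error. Mmp3 was most like Zswim9 (0.80) and Fbxo7 (0.77), lower values than for the other 2 genes. Interferon-stimulated genes were also high on the Geltrex samples in which Mmp13 and Mmp9 were highest, with a summed level of 85.3 to 132 CPM for 10 genes against 13.3 to 20.1 in the other 9 samples. Their part in the Mmp13 and Mmp9 values was not tested.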

How the data were processed

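RNA-seq counts per gene were deposited by the authors as 1 table of whole-number counts for 12 samples, made per the labels with FastQC, Trimmomatic, HISAT2 and featureCounts. Versions, the genome build and the strand setting are not given in the sources used here. All 55536 gene identifiers are in GENCODE M21 (GRCm38), which gave positions and exon lengths. Groups were read from the sample titles.

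Counts were tested with edgeR 4.0.16 in R 4.3.3: TMM normalization, filterByExpr for low counts (minimum 10 per sample, 15 in total), and a quasi-likelihood fit of all 12 samples with 8 residual degrees of freedom. P-values were adjusted by Benjamini-Hochberg over 14499 genes, and 95% intervals used the moderated degrees of freedom. Total counts of 22520404 to 27351766 per sample limit precision for genes with few counts. Genes were named by rule: all 10 listed genes, 3 most alike genes for the 3 listed genes of widest range, and from each list up to 2 called genes at each end per comparison with a mean of at least 1 CPM. Some genes that this rule names are not reported here. The listed genes, the lists and the tests were chosen with earlier results of these data known. On simulated data for Geltrex against control (14240 genes), edgeR recovered 88% of 2-fold and 99% of 4-fold changes, with 10 false among 197 calls. Only 200 genes were changed there, against 4786 called in the data. They were drawn without genes of low counts such as Mmp9, and every group was given the same spread. These shares therefore do not cover such genes or the smaller spread between the Geltrex libraries.

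Alternatives were RLE and upper-quartile normalization, no filter and a stricter filter, DESeq2 1.42.0, fits of 2 groups, a fold minimum, a replicate block, leaving out each sample, ratios without exon length or without Mmp2, and, added after seeing the data, the Geltrex samples summed.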

Additional observations from a re-analysis of the deposited data

How the results depend on the processing

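Counts of called genes moved by over 1.5 times under these settings. A fold of at least 2 left 19 genes for Collagen I and 965 for fibronectin against control, 1325 for Geltrex against control, 1226 for Collagen I against fibronectin, 1352 for Collagen I against Geltrex and 577 for fibronectin against Geltrex. For Collagen I against control, where 162 genes were called, the count was 581 with no filter, 485 with DESeq2, 39 in the fit of the 2 groups alone and 44 to 155 with 1 sample left out. For fibronectin against Geltrex (2805 genes) it was 1717 to 3270 with 1 sample left out. Summing the Geltrex samples, chosen after seeing the data, gave 2102 genes against control, 2167 for Collagen I and 722 for fibronectin against Geltrex.

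Of the 9 listed genes, a fold of at least 2 left 0 of the 1 called for Collagen I against control, 0 of the 2 called for fibronectin against control, and 1 for Collagen I against fibronectin. For Collagen I against control the count was 0 with RLE normalization, 0 in the fit of the 2 groups alone, and 0 to 1 with 1 sample left out. It was 4 with no filter for fibronectin against control, and 6 for Geltrex against control in the fit of the 2 groups alone. The stricter filter, which left out Mmp9 and Mmp13, gave 1 for Geltrex against control, 1 for Collagen I against Geltrex and 2 for fibronectin against Geltrex. Summing the Geltrex samples gave 1 against control and 2 for fibronectin against Geltrex, which had 2 to 3 with 1 sample left out. The log2 ratio of Mmp to Timp levels on Geltrex minus control was 0.22 without division by exon length (exact p = 0.0356 over the 4 groups), -0.019 without Mmp2 (exact p = 0.198) and 0.16 to 0.22 with 1 sample left out. The causes were not tested, beyond the genes or samples each setting removes.

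The replicate number as a block was fitted because the labels share numbers between groups, but same-numbered samples did not deviate together in every pair (correlations of -0.154 to 0.225). With the replicate block, 163, 4627, 4763, 6570, 5399 and 2799 genes were called in the 6 comparisons, and the counts of listed genes were 1, 2, 3, 2, 3 and 4 as without it. Over single listed genes, 664 values under the alternatives kept their side of the threshold, of which 632 kept their direction and 32 that were not called changed sign, while 32 others lost the call and 18 gained it. Mmp9 and Mmp10, with at most 13 and 8 counts per sample, are limited by depth.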
